A study of Mus musculus with 8 samples.

Results

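The transcripts of 8 genes that make and switch off the hypoxia-inducible factors were examined in endogenous CD8+ T (en-T) cells of mice under adoptive cell therapy. The set comprised *Epas1*, *Hif1a* and *Arnt*, which encode the subunits of the factors, *Egln1*, *Egln2* and *Egln3*, which encode the prolyl hydroxylases, *Hif1an*, which encodes the asparagine hydroxylase, and *Vhl*. Members were chosen by gene name, and each of the 8 names matched an entry among the 47493 of the table. All 8 had a mean of at least 1 FPKM (sequenced fragments scaled to the length of the transcript and the depth of the library) and were thus among the 12166 genes tested.

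RNA was sequenced from 4 female C57BL/6 mice aged 6 to 8 weeks. Every mouse received 200000 B16-F10 melanoma cells on day 0, cyclophosphamide (300 mg/kg) on day 3, 2000000 melanoma-specific Pmel-1 cells on day 5 with human IL-2 (10000 IU daily for 3 days), and the CD4-depleting antibody GK1.5 (200 μg weekly for 3 weeks from day 10). Cells were taken on day 25 from inguinal lymph nodes and spleen, and Pmel-1 cells, which carry Thy1.1, were excluded. The en-T cells of each mouse were then divided on a magnetic column into an IL-18Rα-hi enriched fraction, held by an antibody against IL-18Rα, and the flow-through, which served as control (n = 4 per fraction). Both fractions therefore shared every treatment, and neither untreated mice nor a measured oxygen level enters the comparison. The labels name no mouse, and libraries of the same number were taken as the fractions of 1 mouse. The separation was by beads rather than by a gate: *Il18r1*, which encodes IL-18Rα, was at 22.2, 37.2, 27.7 and 35.3 FPKM in the flow-through of mice 1 to 4 and at 110.4, 106.6, 110.3 and 116.0 FPKM after enrichment.

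A hypoxia-inducible factor is a pair of an α subunit, HIF-1α (*Hif1a*) or HIF-2α (*Epas1*), and the shared partner ARNT. In the presence of oxygen, the EGLN enzymes hydroxylate the α subunits on proline, which lets the VHL ubiquitin ligase bind them for degradation, while the enzyme encoded by *Hif1an* hydroxylates an asparagine and so blocks the recruitment of coactivators. In T cells the factors are known for raising glycolytic genes after antigen receptor and cytokine signals. Much of this control acts on protein stability, which RNA levels do not report.

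Promoter sequences of the prolyl hydroxylase genes and of *Hif1a* are given first, because *Egln1* and *Egln3* are textbook targets of the factors that their products restrain. Of these genes, *Hif1a* and *Egln1* were higher after enrichment in the comparison below, whereas *Egln2* and *Egln3* did not pass the test. The 250 bases before the RefSeq start (build GRCm38.p6, the assembly of mm10) were searched on both strands for ACGTG or GCGTG, the core of the hypoxia response element. Capitals mark a match, which appears as CACGT or CACGC where it lies on the other strand, and CACGTG counts as 2 overlapping matches. The *Egln1* stretch is shown without its last part, which GENCODE places in an exon, and the *Hif1a* window lies within the span that GENCODE gives the gene.
Hif1a, chr12:73907617-73907866, plus strand: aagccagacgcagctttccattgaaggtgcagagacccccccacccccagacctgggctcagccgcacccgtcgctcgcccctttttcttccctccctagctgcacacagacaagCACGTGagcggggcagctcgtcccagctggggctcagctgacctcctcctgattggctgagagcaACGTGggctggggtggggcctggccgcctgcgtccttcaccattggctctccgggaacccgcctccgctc
Egln1, chr8:124949325-124949504, minus strand: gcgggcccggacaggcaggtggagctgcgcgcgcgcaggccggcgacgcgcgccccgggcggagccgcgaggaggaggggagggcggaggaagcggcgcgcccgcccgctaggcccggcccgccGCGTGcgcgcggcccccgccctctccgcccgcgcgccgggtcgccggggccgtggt
Egln2, chr7:27166803-27167052, minus strand: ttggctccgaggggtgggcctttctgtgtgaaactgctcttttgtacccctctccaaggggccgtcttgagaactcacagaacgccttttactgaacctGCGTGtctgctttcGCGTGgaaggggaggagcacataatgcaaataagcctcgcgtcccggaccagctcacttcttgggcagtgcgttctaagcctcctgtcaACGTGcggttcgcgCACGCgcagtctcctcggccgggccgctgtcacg
Egln3, chr12:54203875-54204124, minus strand: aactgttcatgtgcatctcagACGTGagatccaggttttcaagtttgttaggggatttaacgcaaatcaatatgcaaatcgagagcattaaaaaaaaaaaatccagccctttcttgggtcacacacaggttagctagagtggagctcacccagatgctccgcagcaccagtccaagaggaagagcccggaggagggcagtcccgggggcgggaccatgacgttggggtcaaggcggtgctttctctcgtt
The *Egln2* window held 4 matches, *Hif1a* 3, *Egln1* 2, of which 1 is in the stretch shown, and *Egln3* 1. A second start of *Egln2* had 1 match, *Arnt* had 1, and *Hif1an* and *Vhl* had 0. The RefSeq table matched 7 of the 8 members. At least 1 match occurred in 38.6% of 32851 promoter windows, counted with 1 chromosome left out, and 4 or more in 2.58%. A match describes the letters in a window and not a site of binding.

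The summed FPKM per library was 656715 to 711678, and depth was estimated from low values at 14443000 to 17406000 fragments. Flow-through 1 stood apart. Its T-cell scaling factor, the level of 8 CD8 T-cell identity genes relative to all libraries, was 0.570 against 0.912 to 1.145 in the other libraries. Results are therefore also given with T-cell scaling, in which every library was divided by its factor, and without flow-through 1. This scaling lowered the median over all genes of the log2 fold change from -0.02 to -0.32.

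To determine whether the oxygen-sensing genes differed with IL-18Rα, each member was compared between the fractions. *Epas1*, *Hif1a* and *Egln1* were higher in IL-18Rα-hi en-T cells, no member was lower, and 5 members did not pass the test. For comparison, 14.1% of all genes tested were called higher and 13.7% lower (limma, adjusted p under 0.05). All 4 enriched libraries lay above all 4 flow-through libraries for 5 members, namely *Epas1*, *Hif1a*, *Egln1*, *Hif1an* and *Vhl*, against 16.4% of all genes. The median log2 fold change of the 8 members was 0.35. With the mouse as a block, *Egln3* and *Vhl* were also called, making 5 members higher, where the share over all genes was 22.2%. Under T-cell scaling only *Epas1* was called, where 4.39% of all genes were higher and 7.99% lower. When flow-through 1 was also left out, *Epas1* and *Hif1a* were called, against 8.39% of all genes.

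**Figure D1:**
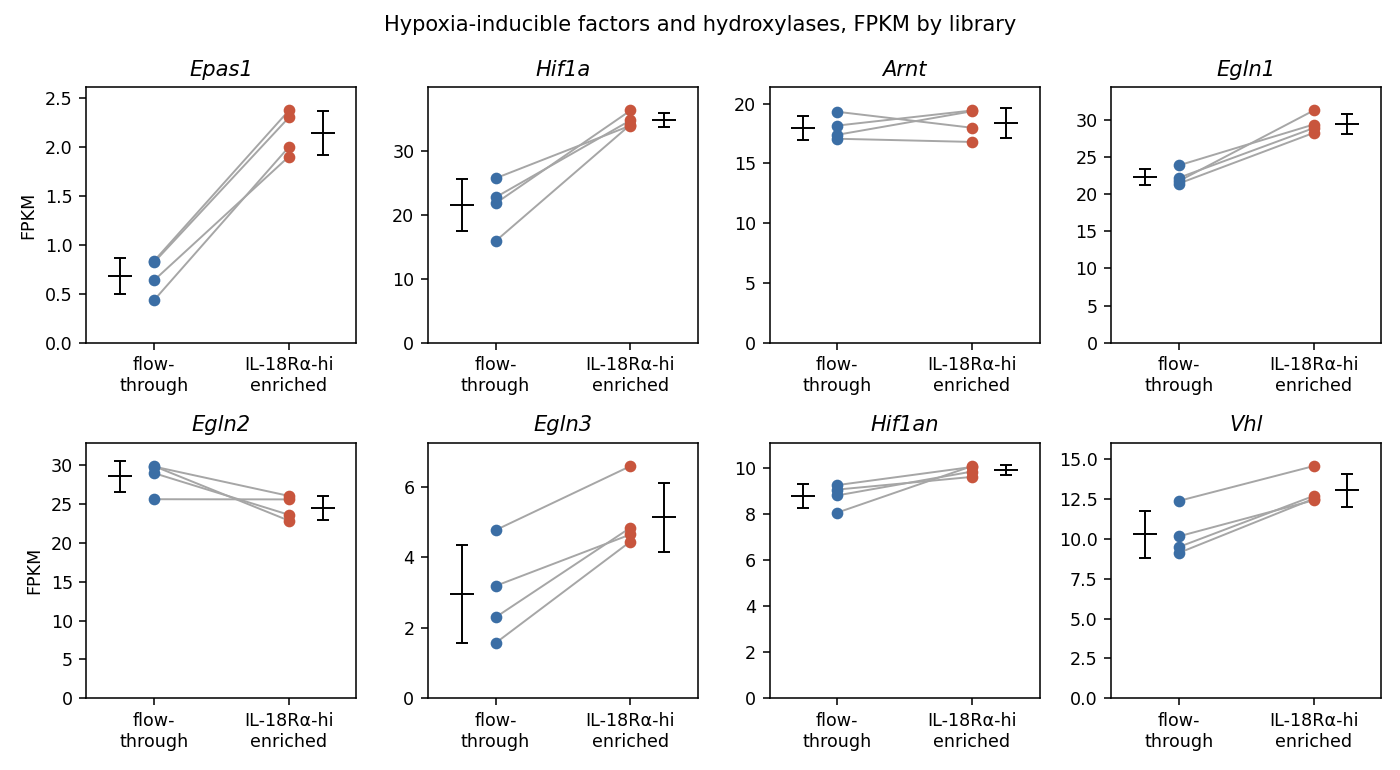
FPKM of the 8 members in each library, with the fractions on the horizontal axis, lines joining the libraries of 1 mouse, and mean ± SD (n = 4) beside the points. *Epas1* rose from 0.434 to 0.836 FPKM in the flow-through to 1.91 to 2.38 FPKM after enrichment, whereas the *Arnt* points overlap.

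*Epas1* (ENSMUSG00000024140, mm10 chr17:86753700-86833410, plus strand, protein-coding) showed the highest ratio between the fractions among the members and the lowest level. It was at 0.638, 0.821, 0.434 and 0.836 FPKM in the flow-through of mice 1 to 4 and at 1.91, 2.31, 2.0 and 2.38 FPKM after enrichment. The lowest enriched library was thus far above the highest flow-through library. The means were 0.682 ± 0.188 and 2.15 ± 0.229 FPKM (SD, n = 4), a ratio of 3.15, and the ratio within a mouse was 2.81 to 4.62. On the log2(FPKM + 1) scale, which understates changes of low genes, the difference was 0.91 (SE 0.13, limma adjusted p = 0.0024). With a pseudocount of 0.1 it was 1.55. The level corresponded to about 37 to 79 fragments per flow-through library and 183 to 213 per enriched library, so that the values rest on few reads. *Epas1* was past the threshold in each of the 19 alternative settings that tested it, with a log2 fold change of 0.73 under T-cell scaling (adjusted p = 0.021). As every flow-through library was under 1 FPKM, *Epas1* passed the filter of a mean of 1 FPKM through its enriched libraries. Without the filter the limma adjusted p was 0.0045.

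*Hif1a* (ENSMUSG00000021109, chr12:73901375-73947530, plus strand), the more abundant α subunit, was at 15.9, 25.7, 21.8 and 22.7 FPKM in the flow-through and at 34.1, 33.9, 36.3 and 34.8 FPKM after enrichment. The enriched libraries were nearly level, whereas the flow-through varied, with mouse 1 lowest. The means of 21.5 ± 4.12 and 34.8 ± 1.08 FPKM gave a ratio of 1.62 and a log2 difference of 0.69 (standard error 0.13, limma adjusted p = 0.0075). The call was lost under T-cell scaling (0.37, adjusted p = 0.12) and without both libraries of mouse 3 (0.68, adjusted p = 0.071), and it held under T-cell scaling without flow-through 1 (0.43, adjusted p = 0.011). An antisense gene, *Gm15283*, spans *Hif1a* at a mean of 0.25 FPKM, and the authors do not state whether the strand was used.

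The share of *Epas1* in the sum of *Epas1* and *Hif1a* differed between the fractions. *Hif3a*, another α subunit gene described below, was left out of this sum. *Epas1* made up 3.86%, 3.10%, 1.95% and 3.55% of the summed *Epas1* and *Hif1a* FPKM in the flow-through and 5.29%, 6.36%, 5.23% and 6.40% after enrichment. The share was higher in the enriched library of all 4 mice, with means of 3.12 ± 0.835% and 5.82 ± 0.646%. The log2 ratio of *Epas1* to *Hif1a* differed by 0.98 between the fractions (exact two-sided permutation p = 0.0286, the smallest that 4 against 4 allows, 0.0429 adjusted over 3 ratios). With 1 FPKM added to both genes, which weighs on the low *Epas1* values, the difference was 0.22 (exact permutation p = 0.171), and sign flips within mice gave an exact p of 0.125, the smallest possible with 4 pairs. *Hif1a* remained the main α transcript in every library.

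*Arnt* (ENSMUSG00000015522, chr3:95434388-95497240, plus strand), the partner subunit, was at 19.3, 17.1, 18.2 and 17.4 FPKM in the flow-through and at 18.0, 16.8, 19.4 and 19.4 FPKM after enrichment. The fractions overlapped, and the enriched library was the higher in 2 of 4 mice. The log2 fold change was 0.03 with a 95% interval of -0.15 to 0.21 (limma adjusted p = 0.80), and under T-cell scaling, with its shift of all genes, it was -0.29 (adjusted p = 0.36). Per *Arnt* FPKM, the sum of *Hif1a* and *Epas1*, without *Hif3a*, was at 0.855, 1.56, 1.22 and 1.36 in the flow-through and at 2.0, 2.16, 1.97 and 1.92 after enrichment, without overlap. This ratio of levels was not tested.

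**Figure D2:**
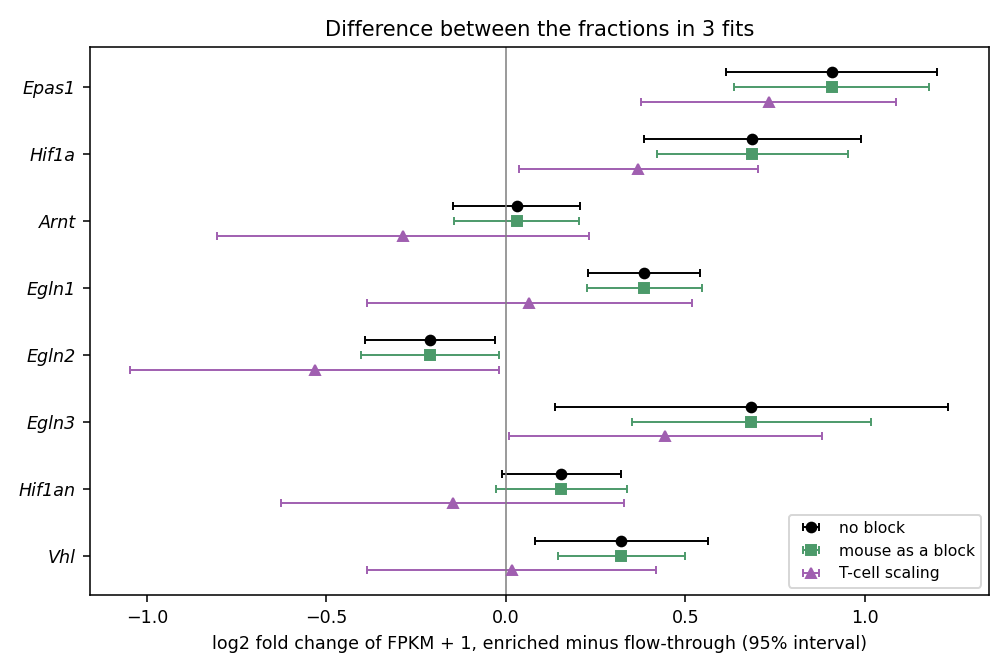
Log2 fold change of FPKM + 1 (enriched minus flow-through, horizontal axis) of each member with its 95% interval in 3 fits, without a block, with the mouse as a block, and with T-cell scaling. T-cell scaling moved *Epas1* from 0.91 to 0.73 and *Egln1* from 0.39 to 0.07, while the block changed the intervals and left the estimates in place.

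Among the prolyl hydroxylases, *Egln1* (PHD2; ENSMUSG00000031987, chr8:124908587-124949324, minus strand), regarded as the main oxygen sensor of the family, was at 21.8, 23.9, 22.2 and 21.4 FPKM in the flow-through and at 31.3, 29.4, 28.9 and 28.3 FPKM after enrichment. Both fractions were tight and did not overlap. Means were 22.3 ± 1.09 and 29.5 ± 1.30 FPKM, a ratio of 1.32 and a log2 difference of 0.39 (standard error 0.07, limma adjusted p = 0.0056). T-cell scaling reduced this to 0.07 (adjusted p = 0.81), and to 0.25 (adjusted p = 0.079) when flow-through 1 was also left out. Without both libraries of mouse 3 the value was 0.39 with an adjusted p of 0.063.

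*Egln2* (PHD1; ENSMUSG00000058709, chr7:27158658-27166802, minus strand) had the highest mean of the members in the flow-through, at 29.9, 25.6, 29.0 and 29.8 FPKM, and was slightly below *Hif1a* in flow-through 2. It was at 22.9, 25.6, 23.6 and 26 FPKM after enrichment. The libraries of mouse 2 were level, and the enriched library was the lower in the other mice. The log2 difference of -0.21 (standard error 0.08, limma adjusted p = 0.080) did not pass. It passed without flow-through 2 (-0.26, adjusted p = 0.040).

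*Egln3* (PHD3; ENSMUSG00000035105, chr12:54178981-54203860, minus strand) was the least abundant of the hydroxylases. Its levels were 1.57, 4.77, 2.30 and 3.19 FPKM in the flow-through and 4.45, 6.59, 4.84 and 4.65 FPKM after enrichment. Flow-through 2 overlapped with the enriched fraction, although the enriched library was the higher in 4 of 4 mice, by ratios of 1.38 to 2.84. The log2 difference was 0.68 (standard error 0.24, limma adjusted p = 0.064). With the mouse as a block the same estimate had an SE of 0.14 and an adjusted p of 0.0083.

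The balance of the prolyl hydroxylases differed between the fractions. *Egln2* made up 47.2% to 56.2% of the summed FPKM of the family in the flow-through and 39.0% to 44.2% after enrichment. *Egln1* made up 39.4% to 44.0% and 47.7% to 53.4%, so that the order of the leading enzymes was reversed. The ratio of *Egln2* to *Egln1* was 1.37, 1.07, 1.30 and 1.39 in the flow-through and 0.731, 0.871, 0.817 and 0.921 after enrichment, a log2 difference of -0.62 (exact two-sided permutation p = 0.0286, 0.0429 adjusted over 3 ratios), which was lower in 4 of 4 mice (sign flips within mice, exact p = 0.125, the smallest possible). Without enriched library 1 it was -0.56 (exact permutation p = 0.0571). The ratio of *Egln3* to *Egln1* differed by 0.50 on the log2 scale (exact two-sided permutation p = 0.229). The summed FPKM of the family was 53.8 ± 0.599 in the flow-through and 59.1 ± 1.77 after enrichment. Ratios and shares within a library are not changed by a scaling factor per library.

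**Figure D3:**
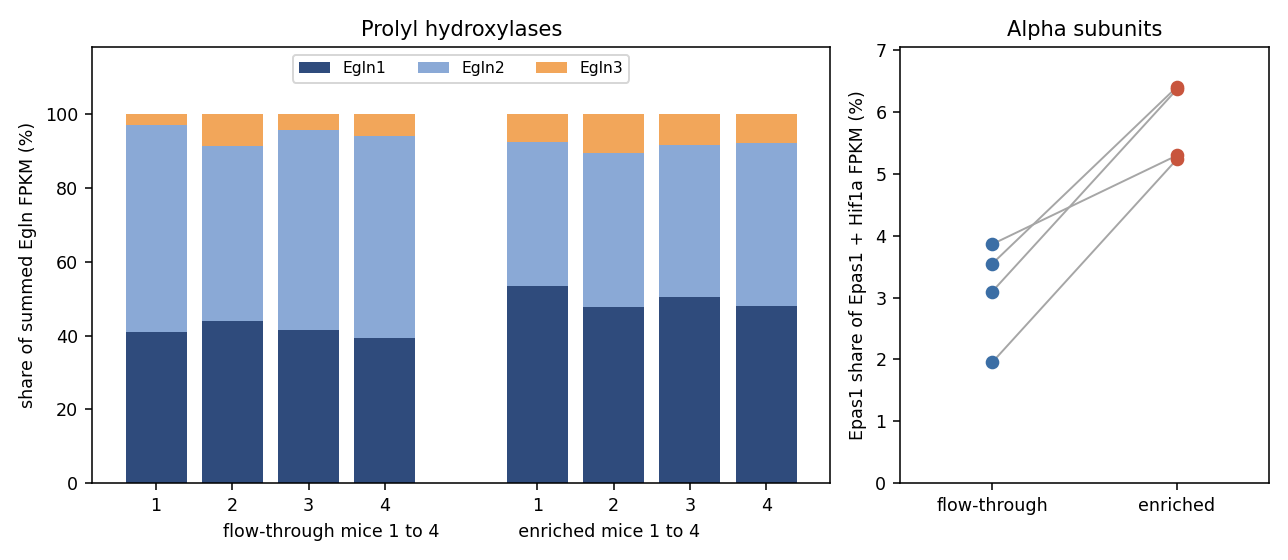
Left, share of *Egln1*, *Egln2* and *Egln3* in their summed FPKM (percent, stacked to the whole) in each library. Right, share of *Epas1* in the summed FPKM of *Epas1* and *Hif1a* (percent), with lines joining the libraries of 1 mouse. *Egln2* was the larger share in all 4 flow-through libraries and *Egln1* in all 4 enriched libraries, and the *Epas1* share rose from 1.95% to 3.86% to 5.23% to 6.40%.

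*Hif1an* (FIH; ENSMUSG00000036450, chr19:44562850-44576274, plus strand), the asparagine hydroxylase, was at 9.05, 8.05, 9.24 and 8.79 FPKM in the flow-through and at 9.6, 10.1, 10.0 and 9.83 FPKM after enrichment. The enriched libraries lay above the flow-through by a small margin. The log2 fold change was 0.15 (95% interval -0.01 to 0.32, limma adjusted p = 0.14), and under T-cell scaling the value was -0.15 (adjusted p = 0.60), a shift about as large as that of the median of all genes.

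*Vhl* (ENSMUSG00000033933, chr6:113623959-113631633, plus strand), the substrate receptor of the ubiquitin ligase, was at 9.11, 10.1, 9.48 and 12.4 FPKM in the flow-through and at 12.5, 12.4, 12.7 and 14.6 FPKM after enrichment. The highest flow-through library (12.37 FPKM) and the lowest enriched library (12.41 FPKM) were nearly equal, and mouse 4 was highest in both fractions. The log2 difference was 0.32 (standard error 0.11, limma adjusted p = 0.052). With the mouse as a block the adjusted p was 0.013, and under T-cell scaling the value was 0.02 (adjusted p = 0.95). *Tceb1*, *Tceb2*, *Cul2* and *Rbx1*, the other subunits of that ligase, did not pass the test (0 of 4 in either direction, median log2 fold change 0.02). Of all genes, 14.1% were higher and 13.7% lower in this fit.

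FPKM is scaled by length, so levels can be set in order. In the flow-through the order of the means was *Egln2*, *Egln1*, *Hif1a*, *Arnt*, *Vhl*, *Hif1an*, *Egln3* and *Epas1*, in which the ranges of *Egln2* and *Hif1a*, of *Egln1* and *Hif1a*, of *Hif1a* and *Arnt*, and of *Vhl* and *Hif1an* overlapped. In the enriched fraction *Hif1a* came first, followed by *Egln1*, *Egln2*, *Arnt*, *Vhl*, *Hif1an*, *Egln3* and *Epas1*, and the ranges of all neighbours were apart.

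Genes with the profile most like that of each called member were sought among the 9329 genes that averaged at least 5 FPKM, by the root mean square difference of centred log2(FPKM + 1) over the 8 libraries. The nearest to *Epas1* were *Ptger4*, a prostaglandin E receptor (0.076, from 15.5 ± 1.70 to 31.1 ± 1.71 FPKM), *H1f0*, a linker histone (0.078), and *Smad3*, a transducer of TGF-β signals (0.086). On this scale the *Epas1* ratio of 3.15 in FPKM shrank to a log2 difference of 0.91, so genes with a smaller ratio came nearest. *Hif1a* was nearest to the cytoskeletal genes *Sept9* (0.043) and *Actr3* (0.043) and the kinase gene *Nek7* (0.050). For *Egln1* they were *Capza1*, which encodes an actin capping protein (0.046), *Adprh* (0.048) and *Smdt1*, a part of the mitochondrial calcium uniporter (0.048). All 9 were higher in the enriched fraction, as the choice by likeness requires.

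Because *Epas1* is strongly expressed by endothelial cells and macrophages, marker lists of other cell types were examined. In bulk RNA, a change in the number of cells of a type and a change of RNA per cell cannot be told apart. Of 10 endothelial markers 3 were tested, 0 were higher and 1, *Egfl7*, was lower, while the rest averaged under 1 FPKM. Without the filter, 1 of the 10 was higher and 2 were lower, against 1669 and 1283 of all 22789 genes. The summed level of the 10, of which 2 averaged at least 5 FPKM, was 51.1 to 63.6 FPKM in the flow-through and 33.0 to 37.4 FPKM after enrichment. *Cdh5* and *Kdr*, which define endothelium, were at most at 0.411 FPKM in any library, but *Epas1* itself was at only 0.434 to 2.38 FPKM. Markers of macrophages and monocytes moved with *Epas1* and *Hif1a*. Of 9 tested, 5 were higher and 0 lower, and their sum was 448 to 1143 FPKM in the flow-through and 1017 to 1795 FPKM after enrichment. Dendritic cell markers were higher for 6 of 7, with sums of 15.6 to 27.0 and 37.9 to 79.7 FPKM. NK cell markers were higher for 5 of 7 tested, with sums of 24.4 to 43.8 and 56.7 to 112.4 FPKM. The authors report *Ncr1* and *Klrb1c* of this list among NK receptor genes raised in these enriched cells. They relate such genes to T-cell receptor stimulation and to cytokine-driven activation of T cells. Of 7 γδ T-cell markers 3 were higher (68.3 to 97.3 and 90.7 to 194.4 FPKM). B-cell markers did not pass (0 of 5 tested), 4 of 11 erythroid markers were lower (957 to 3004 and 235 to 1585 FPKM), and 3 of 7 naive T-cell markers were lower. The 8 CD8 T-cell identity genes did not pass in either direction, with sums of 1573 to 2951 and 3014 to 3225 FPKM. No marker found in the table was at 0 in all libraries. With the mouse as a block the counts higher were 9 of 9 for macrophages, 6 of 7 for γδ T cells and 6 of 7 for NK cells, and 8 of 11 erythroid markers were lower. Over all genes, 14.1% were higher and 13.7% lower without the block, and 2705 and 2763 of 12166 with it. Leaving out 1 library gave 2 to 7 higher macrophage markers, 2 to 4 γδ, 3 to 5 NK and 5 to 6 dendritic cell markers, 2 to 5 lower markers each for erythroid and naive T cells, and lost *Egfl7* without flow-through 3 or enriched library 2 or 4. The lowest macrophage count was without enriched library 4, and without mouse 3 or mouse 4 it was 0. Over all genes, 447 of 12164 were higher without mouse 3 and 851 of 12102 without mouse 4. The part of the other cell types in the levels of *Epas1* and *Hif1a* was not tested.

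**Figure D4:**
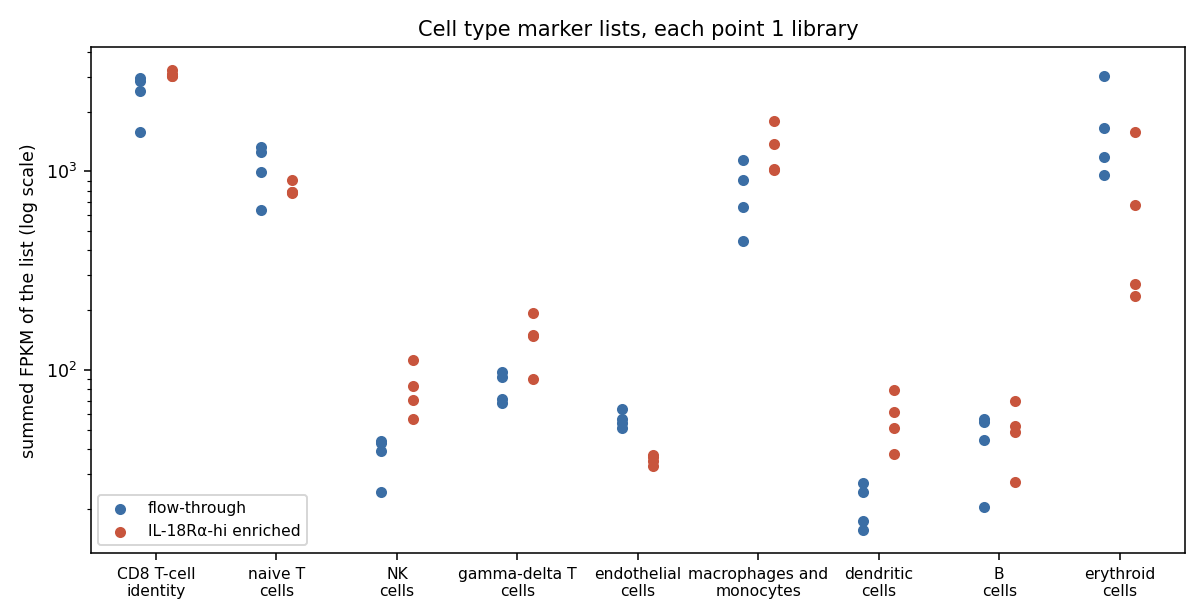
Summed FPKM of each cell type marker list (logarithmic vertical axis), each point being 1 library of the flow-through or the enriched fraction. The endothelial sum is lower in the enriched fraction (33.0 to 37.4 FPKM) than in the flow-through (51.1 to 63.6 FPKM), whereas the dendritic cell and NK cell sums are higher.

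Genes that the factors are known to induce were then examined, beginning with glycolysis. Of 20 such genes, all tested, 9 were higher and 2 lower, with a median log2 fold change of 0.25 against -0.02 over all genes. The shares over all genes were 14.1% higher and 13.7% lower. *Slc16a3*, which exports lactate, rose by 0.97 (SE 0.19, from 4.50 ± 1.40 to 9.6 ± 1.47 FPKM, limma adjusted p = 0.0075). *Pfkp*, a phosphofructokinase, rose by 0.76, *Pkm*, a pyruvate kinase, by 0.74 and *Slc2a1*, which encodes the glucose transporter GLUT1, by 0.65 (limma adjusted p = 0.0050, 0.016 and 0.029). *Pdk1*, which restrains pyruvate entry into mitochondria, went the other way, from 52.6 ± 3.75 to 25.7 ± 1.37 FPKM (-1.0, SE 0.08, limma adjusted p = 0.00028). *Hk1*, a hexokinase, was also lower (-0.83, adjusted p = 0.025). Without flow-through 3 or enriched library 2, 3 or 4, 5 genes of the list were higher. In those fits 1107 to 1191 of 12126 to 12176 genes were higher. Without mouse 3 there were 2 higher and 1 lower in the list, against 447 and 292 of all 12164 genes tested. *Slc16a3*, *Pfkp* and *Pdk1* passed whichever single library was left out, whereas *Pkm* was lost without enriched library 2, *Hk1* without flow-through 3 or enriched library 2 or 4, and *Slc2a1* without any of 5 libraries. Under T-cell scaling 0 of the 20 genes were higher and 1, *Pdk1*, was lower, against 4.39% and 7.99% of all genes. The median was -0.04 where that of all genes was -0.32. With flow-through 1 also left out, 4 were higher and 2 lower, with a median of 0.16 against -0.14 over all genes. Of all 12099 genes tested in that fit, 1015 were higher and 1977 lower.

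The list of other targets did not move one way. Of 31 genes 24 were tested, 5 were higher and 4 lower, and the median was -0.12. Of all genes, 14.1% were higher and 13.7% lower. With the mouse as a block 6 were higher and 8 lower, against 2705 and 2763 of all 12166 genes. At a mean of at least 5 FPKM the median was 0.02. The lower count was 1 without flow-through 2 or without enriched library 3, and 2 without flow-through 3 or enriched library 1 or 4, and the median was -0.03 without flow-through 2. *Hmox1*, heme oxygenase, rose from 2.68 ± 0.933 to 8.72 ± 1.46 FPKM (a log2 difference of 1.43, SE 0.21, limma adjusted p = 0.0027). *Bhlhe40*, a repressor active in effector T cells, rose from 15.5 ± 5.02 to 39.8 ± 7.32 FPKM (1.34, SE 0.25, limma adjusted p = 0.0062). *Ddit4*, an inhibitor of mTORC1, rose by 0.81 and *Cited2*, which competes with the α subunits for coactivators, by 0.59 (adjusted p = 0.013 and 0.046). *Angptl4*, a lipase inhibitor, fell from 6.75 ± 1.2 to 2.68 ± 0.509 FPKM (-1.07, SE 0.14, limma adjusted p = 0.0020). *Plin2*, which coats lipid droplets, *Bnip3l*, a mitophagy receptor, and *Mxi1*, an antagonist of MYC, were lower by -0.49, -0.38 and -0.36 (limma adjusted p = 0.045, 0.030 and 0.044). *Hmox1*, *Bhlhe40*, *Ddit4* and *Angptl4* passed whichever single library was left out. Among the 8 fits that leave out 1 library, the call was lost in 7 for *Cited2* and *Mxi1*, in 6 for *Plin2* and in 4 for *Bnip3l*, with adjusted p up to 0.12, 0.11, 0.11 and 0.084. Without mouse 3, *Hmox1* and *Angptl4* were the named genes of this list that passed. *Epo* was listed at 0 in all libraries. *Hmox1*, *Bhlhe40* and *Angptl4* were called under T-cell scaling too (1.19, 1.03 and -1.35).

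**Figure D5:**
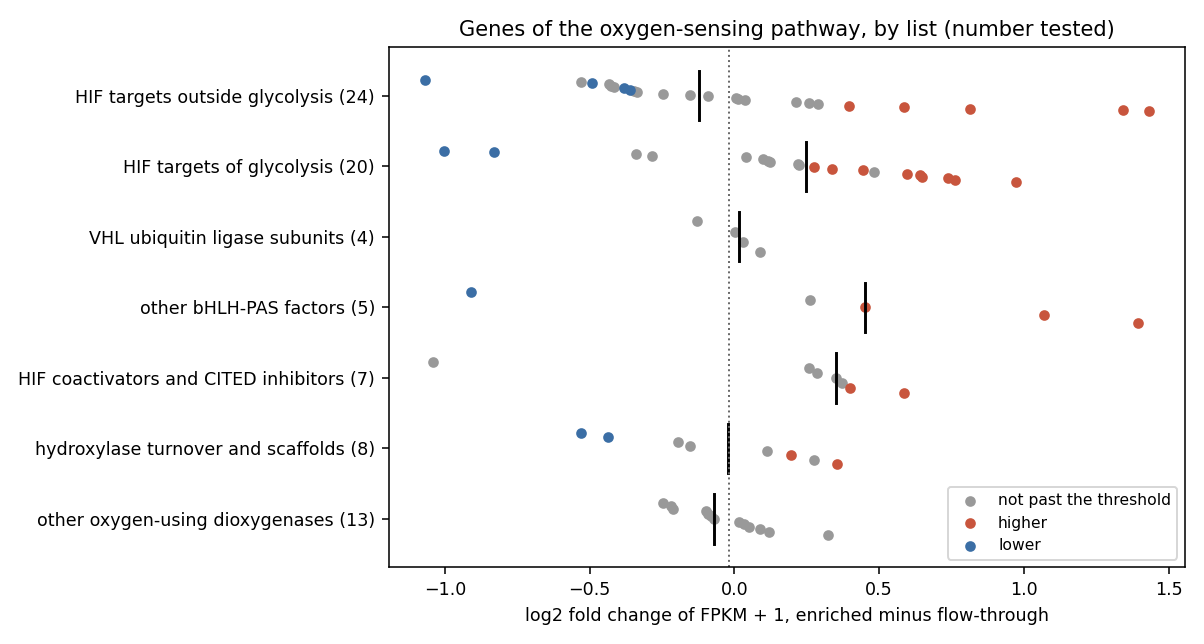
Log2 fold change of FPKM + 1 (enriched minus flow-through, horizontal axis) of every tested gene in 7 lists around the oxygen-sensing pathway. Points are genes, coloured by the limma call, black bars are list medians, and the dotted line is the median of all genes (-0.02). The glycolysis list has 9 higher and 2 lower genes, the list of other targets 5 and 4.

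Other members of the bHLH-PAS family, to which *Hif1a*, *Epas1* and *Arnt* belong, were examined last. Of 13, 5 were tested, 3 were higher and 1 lower, where 14.1% of all genes were higher and 13.7% lower. *Arnt2*, 1 of the 3, passed the filter only through its enriched libraries, which favours a call of higher. Without the filter, 5 of 12 were higher and 1 lower, against 1669 and 1283 of all 22789 genes. *Arnt2*, which can replace *Arnt* as partner, was at 0.156, 0.354, 0.185 and 0.156 FPKM in the flow-through and at 1.25, 2.58, 2.0 and 3.22 FPKM after enrichment (a log2 difference of 1.39, SE 0.20, limma adjusted p = 0.0024). It thus remained below *Arnt* in every library. *Ahr*, the aryl hydrocarbon receptor, which also pairs with ARNT, rose from 1.77 ± 0.565 to 4.77 ± 0.877 FPKM (1.07, SE 0.19, limma adjusted p = 0.0051). *Arntl*, a core gene of the circadian clock, rose from 5.88 ± 0.426 to 8.38 ± 0.326 FPKM (0.45, adjusted p = 0.0055), and its partner *Clock* was at 3.16 ± 0.343 and 3.98 ± 0.399 FPKM without passing (0.26, adjusted p = 0.097). *Hif3a*, the third α subunit gene, was lower. It was at 5.09, 1.84, 2.67 and 2.35 FPKM in the flow-through and at 1.2, 1.2, 1.04 and 0.724 FPKM after enrichment (-0.91, SE 0.23, limma adjusted p = 0.021), with flow-through 1 highest and a value of -0.69 without it (adjusted p = 0.014). Its call was lost without flow-through 3 or enriched library 3 or 4, with adjusted p up to 0.061, while *Ahr* and *Arntl* passed whichever single library was left out. *Arnt2* passed where it was tested, but without enriched library 4 it fell below the filter and was not tested. Under T-cell scaling *Arnt2* and *Ahr* were called (1.27 and 0.85, adjusted p = 0.0056 and 0.014), *Arntl* and *Hif3a* were not (0.16 and -1.15, adjusted p = 0.49 and 0.058). *Arnt2* and *Ahr*, each under 5 FPKM, were named as the tested members of their family.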

How the data were processed

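Stranded libraries of polyadenylated RNA were read from both ends. The deposited values are FPKM, which the authors computed with Cufflinks 2.1.1 after mapping with TopHat to mm10, with correction for multi-mapped reads and fragment bias. Other Cufflinks options were at their defaults, and no strand setting was stated for the mapping, so genes overlapping on opposite strands are uncertain. The annotation release was not stated in the sources used here. FPKM keeps no exact depth, and fragment numbers are estimates from genes of 1 long transcript. Groups and library numbers were taken from the sample labels.

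Differences were tested on log2(FPKM + 1) by limma (version 3.58.1; R 4.3.3), with a variance trend and without a block, for all genes averaging at least 1 FPKM, two-sided, with Benjamini-Hochberg adjustment over all 12166 genes and a threshold of 0.05. The fit was tested on simulated data. Ratios were compared by exact permutation over 70 arrangements of the libraries. The labels give a number and name no mouse, and libraries of the same number were taken as the fractions of 1 mouse. Deviations from the fraction means correlated at 0.66, 0.59, 0.31 and 0.47 for numbers 1 to 4. Between unlike numbers the correlation was -0.60 to 0.41, and each library correlated most with the one of its own number. Alternatives were a pseudocount of 0.1, no filter, a mean of at least 5 FPKM, quantile normalization, T-cell scaling (the geometric mean of the CD8 T-cell identity genes), the mouse block, no variance trend, and leaving out each library or mouse. T-cell scaling without flow-through 1 was added after seeing the data.

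Members and lists were chosen with earlier results of these data known. Genes named from a pathway list were, in each direction, at most 4 called genes with the largest change and at least 5 FPKM in the higher fraction. The tested bHLH-PAS genes, the ligase subunits, the markers *Egfl7*, *Cdh5*, *Kdr*, *Ncr1* and *Klrb1c*, and *Epo* were named besides, some after their values had been seen. Coordinates were taken from GENCODE M21, in which 98.9% of identifiers were found, and date-like names were restored from it.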

Additional observations from a re-analysis of the deposited data

Results flagged for a closer look

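Within each fraction, the highest and the lowest of the 4 libraries were compared with the nearest other by Dixon's criterion, for the members, their shares and ratios and the genes named from the pathway lists. Of 70 groups of 4 libraries, 3 had 1 library far from the others, where chance gives 3.5. *Vhl* was at 14.6 FPKM in enriched library 4, against 12.4 to 12.7 FPKM in the other enriched libraries, and the flow-through of the same mouse was also the highest of its fraction. *Angptl4* was at 3.44 FPKM in enriched library 3, against 2.39 to 2.51 FPKM. *Limd1* was at 34.5 FPKM in enriched library 1, against 32.5 to 32.8 FPKM. Each of these libraries lay on the same side of the other fraction as the rest of its own.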

How the results depend on the processing

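*Epas1* kept its direction and its call in all 19 alternatives that tested it, and no filter, a pseudocount of 0.1 and no variance trend changed no member's call. *Epas1* and *Egln3* were not tested at a mean of at least 5 FPKM, where *Vhl* passed (0.32). Quantile normalization brought *Egln3* (0.65) and *Vhl* (0.33) past the threshold, and so did the mouse block (0.68 and 0.32), which raised the calls from 3384 to 5468 and changed no other member. T-cell scaling gave 1513 calls, of which 35.4% were higher genes against 50.8%, and *Hif1a* (0.37) and *Egln1* (0.066) no longer passed, while *Arnt* (-0.29) and *Hif1an* (-0.15) moved below 0, by about the shift of the median of all genes (-0.02 to -0.32). When flow-through 1 was also left out, *Egln1* (0.25) did not pass and *Arnt* was at -0.056. Without mouse 3 there were 739 calls, and *Hif1a* (0.68) and *Egln1* (0.39) were lost. Without mouse 4 there were 1466 calls and *Arnt* was at -0.0092, and without mouse 2 there were 2085 calls and *Egln3* passed (0.78). These fits had fewer samples. Leaving out 1 library gave 2073 to 3593 calls, with *Egln2* at -0.26 to -0.18, *Egln3* at 0.50 to 0.89 and *Vhl* at 0.27 to 0.41, each past the threshold in 1 of 8 cases. The *Epas1* to *Hif1a* difference was 0.22 with 1 FPKM added to both (exact permutation p = 0.171). Sign flips within mice cannot go below 0.125, which the differences of 0.98 and -0.62 reached. Leaving out 1 library gave -0.70 to -0.56 for *Egln2* to *Egln1*. Where not stated, the cause was not tested.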

Other observations

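Genes around the hydroxylases were described by 3 further lists. Of 8 genes for the turnover and scaffolding of the hydroxylases, 2 were higher and 2 lower, and 0 passed without enriched library 2. Over all genes 14.1% were higher and 13.7% lower. *Usp20*, a deubiquitinase of HIF-1α, rose from 12.1 ± 1.51 to 15.6 ± 0.498 FPKM (log2 fold change 0.35, limma adjusted p = 0.025), and *Limd1*, a scaffold that joins VHL and the prolyl hydroxylases, from 28.8 ± 0.548 to 33.1 ± 0.913 FPKM (0.20, limma adjusted p = 0.042). *Siah1a*, an E3 ligase for the prolyl hydroxylases, fell from 14.0 ± 2.11 to 9.35 ± 1.18 FPKM (-0.53, limma adjusted p = 0.019), and *Usp33* from 15.6 ± 3.23 to 11.1 ± 0.485 FPKM (-0.44, limma adjusted p = 0.038). Under T-cell scaling *Siah1a* was called (-0.83), *Usp20* (0.04), *Limd1* (-0.13, the opposite sign) and *Usp33* (-0.75) were not.

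Of 8 coactivator and inhibitor genes 7 were tested, 2 were higher and 0 lower, against 14.1% and 13.7% of all genes. *Crebbp*, which encodes a coactivator of the factors, rose from 6.10 ± 1.04 to 8.32 ± 0.926 FPKM (0.40, limma adjusted p = 0.048), and the other was *Cited2*. With the mouse as a block 5 were higher and 1, *Cited4*, was lower, where 22.2% of all genes were higher. No gene of the list was called higher without flow-through 1 or 3 or without enriched library 2, 3 or 4. *Cited4* was at 68.9, 11.8, 42.2 and 23.5 FPKM in the flow-through and at 22.1, 8.55, 20.7 and 10.0 FPKM in the enriched fraction, without passing (-1.04, adjusted p = 0.17). It was lower in the enriched library of all 4 mice and passed with the mouse as a block (adjusted p = 0.0039), and it was picked for its spread. Of 15 genes for other dioxygenases that use oxygen, such as the histone demethylases and the TET enzymes, 13 were tested by limma and 0 passed in either direction (median log2 fold change -0.07). Over all genes the shares were 14.1% higher and 13.7% lower. With the mouse as a block 1 was higher, against 22.2% of all genes, and 2 were lower without flow-through 1, against 1577 of all 12195 genes.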
